A study of Mus musculus with 9 samples.

Results

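The genes described here are cytochromes P450 measured in mouse liver, other than the Cyp2b and Cyp2c genes. They were not selected for a part in drug metabolism or for their signal in liver. They were chosen by name: every gene with a symbol that starts with Cyp1, Cyp2 or Cyp3, followed directly by a letter and then digits, with pseudogenes left out as well. This gave 38 of the 22180 genes tested. The samples were mouse livers on 9 whole-transcript microarrays, 3 for each of 3 groups. The regular diet group (RD) and the high-fat diet group (HFD) were given vehicle, and the GFB group was fed the high-fat diet and given ginseng flower bud extract orally, 500 mg/kg daily over 12 weeks. All mice were C57BL/6 by the protocol (the strain entry reads C56BL/6J), were 5 weeks old at the start and were fasted overnight before the liver was taken. There was no group on the regular diet that received the extract, and whether the arrays of a group came from different mice is not stated, so p-values cover no more than the spread of these 9 arrays.

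Cytochromes P450 are haem proteins of the endoplasmic reticulum that insert an oxygen atom into their substrate, using electrons passed on by NADPH-cytochrome P450 reductase or by cytochrome b5. Families 1, 2 and 3 oxidise drugs, plant compounds, pollutants, steroids and fatty acids, and most are at their highest in hepatocytes, many of them around the central vein. Their genes are controlled by sensors of foreign compounds, among them the aryl hydrocarbon receptor (Ahr) for family 1 and the pregnane X receptor (Nr1i2) and the constitutive androstane receptor (Nr1i3) for families 2 and 3.

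Each value is the authors' log2 expression value of 1 probe set per gene, and a difference of 1 on this scale is a 2-fold difference. Array medians ran from 4.34 to 4.38 and arrays of a group correlated across genes at 0.991 to 0.994. The labelled tissue was checked on 7 hepatocyte markers such as Alb and Apoa1: their summed linear signal was 45657 to 48754 on the RD arrays, 48650 to 49098 on HFD and 48661 to 49683 on GFB, and 0 of the 7 passed the test in any comparison. The median gene had a mean of 4.74 over the 9 arrays. Signal under this mark was treated as not told from background, although the mark is a convention and no detection call was used. Of the 38 P450 genes 22 lay above it and 16 below. Cyp2a5 is among the 22 only through its HFD and GFB arrays. Replicate spread of these 22 was wider than that of other bright genes in RD and HFD, and close to it in GFB: the median SD over 3 arrays was 0.17 in RD, 0.17 in HFD and 0.11 in GFB, against 0.11, 0.09 and 0.10 over all genes above the mark. In whole liver, fewer cells of a type and less RNA per cell cannot be told apart.

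On the high-fat diet 2 P450 genes rose, Cyp2r1 and Cyp2u1, and none fell. Called genes are those at a Benjamini-Hochberg adjusted p under 0.05 in limma over all genes; 1.34% of all genes were called in this comparison, and 0.821% were called higher. The HFD mean was above the RD mean in 26 of the 38 genes, with a median log2 difference of 0.22 and a range of -0.56 to 0.90, while over all genes 50.1% were higher and the median difference was 0.00. At an unadjusted p under 0.05 there were 17 P450 genes with the higher mean in HFD and 1 with the lower, the dim Cyp2d34, against 13.3% of all genes in both directions. All HFD arrays lay above all RD arrays in 14 genes and below them in 1, compared with 7.93% and 7.86% of all genes. Among the 22 brighter P450 genes 16 were higher in HFD with a median of 0.33, and 12 had no overlap between the groups, whereas 1310 of the 11090 genes above the mark were higher without overlap. The 16 dim genes had a median difference of 0.05.

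**Figure D1:**
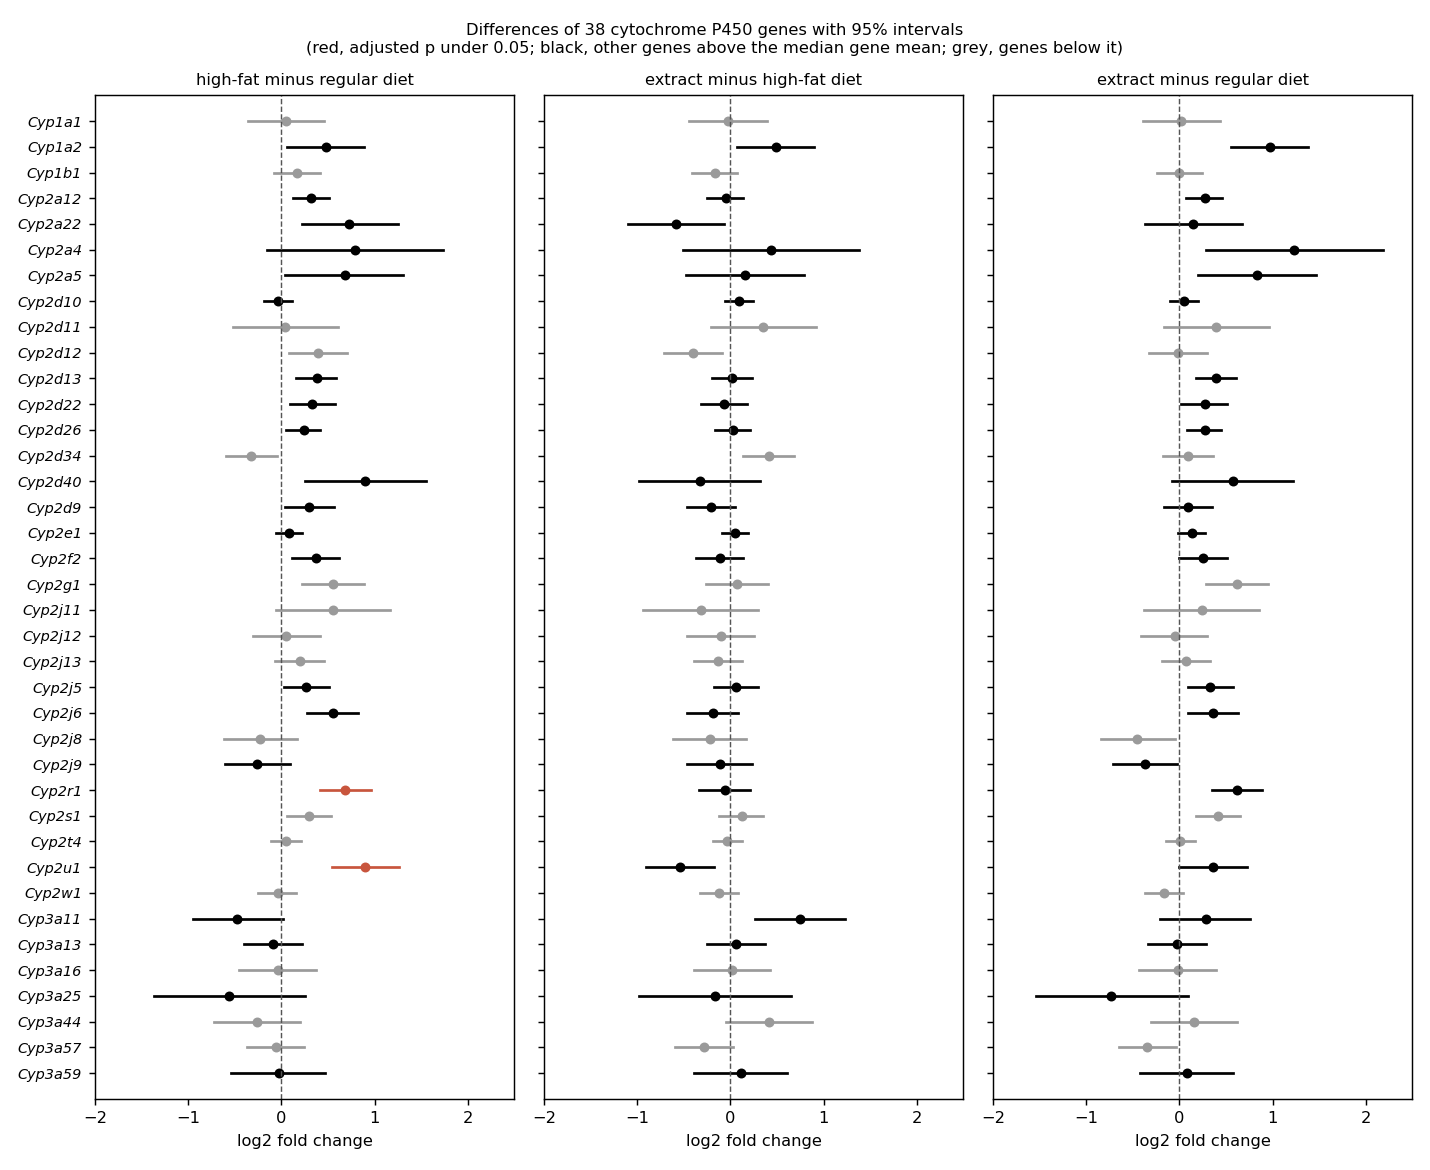
Log2 difference between groups for each P450 gene in the 3 comparisons (x axis), with genes on the y axis and bars for the 95% confidence interval of the limma fit; called genes are red, other genes above the mark black and genes below it grey. In HFD against RD the points of Cyp2r1 and Cyp2u1, the only called ones, lie at 0.68 and 0.90, and the 7 Cyp3a genes lie between -0.56 and -0.03.

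Cyp2r1 encodes an enzyme that hydroxylates vitamin D in the liver, the first step of its activation. Its values were 6.26, 6.18 and 6.10 on the RD arrays, 6.82, 7.05 and 6.72 on HFD, and 6.82, 7.00 and 6.58 on GFB. Every RD array was thus below every array of the other groups, and the HFD and GFB arrays overlapped. Cyp2r1 rose by 0.68 ± 0.12 (SE) on the log2 scale in HFD against RD, a 1.61-fold difference with a 95% confidence interval of 0.41 to 0.96 and an adjusted p of 0.0336. The GFB mean differed from the HFD mean by -0.06 ± 0.12, with an interval of -0.34 to 0.21. Against RD the GFB mean was 0.62 ± 0.12 higher (adjusted p = 0.0796). The diet call on Cyp2r1 was lost without RD replicate 2 (adjusted p = 0.109), RD replicate 3 (0.107), HFD replicate 1 (0.0868), HFD replicate 2 (0.109), HFD replicate 3 (0.0694) or GFB replicate 1 (0.0668), with log2 differences of 0.59 to 0.76 over all alternatives.

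The 250 bases before the start of Cyp2r1 are shown because it is a called gene, with capitals on the CCAAT motif (the CCAAT box; both strands searched), found 105 and 64 bases before the start. This is chr7:114562973-114563222 on the minus strand of GRCm38.p6, from RefSeq, written 5′ to 3′.
Cyp2r1: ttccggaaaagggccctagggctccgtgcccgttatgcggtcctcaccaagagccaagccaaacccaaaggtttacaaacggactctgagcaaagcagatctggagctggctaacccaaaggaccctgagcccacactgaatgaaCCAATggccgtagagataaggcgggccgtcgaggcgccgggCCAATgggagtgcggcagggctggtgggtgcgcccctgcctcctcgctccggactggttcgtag
CCAAT occurred in 33.8% of the 32851 RefSeq mouse promoters of this length and in 13 of the 34 promoters found for 32 of the 38 P450 genes. TATAAA (the TATA box) does not occur in this window of Cyp2r1, whereas 12.4% of all promoters and 16 of the 34 hold it.

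Cyp2u1 encodes a hydroxylase of long-chain fatty acids. Its values were 7.69, 7.68 and 7.84 on RD, 8.95, 8.25 and 8.71 on HFD, and 7.97, 8.26 and 8.06 on GFB. The RD arrays lay below all others, and the GFB arrays lay below the HFD arrays except that GFB replicate 2 and HFD replicate 2 were almost equal. Cyp2u1 rose by 0.90 ± 0.16 in HFD against RD, a 1.87-fold difference (95% confidence interval 0.54 to 1.26, adjusted p = 0.0336). The GFB mean was 0.54 lower than the HFD mean (log2 difference -0.54 ± 0.16, interval -0.90 to -0.18, unadjusted p = 0.00785), which did not pass over all genes (adjusted p = 0.702). It was 0.36 ± 0.16 above the RD mean (adjusted p = 0.415). The diet call on Cyp2u1 was lost without RD replicate 1 (adjusted p = 0.0641), RD replicate 2 (0.118), RD replicate 3 (0.0815), HFD replicate 1 (0.0771), HFD replicate 3 (0.116) or GFB replicate 1, 2 or 3 (0.0620, 0.0584 and 0.0599), and kept without HFD replicate 2 at a log2 difference of 1.09 (adjusted p = 0.0181).

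**Figure D2:**
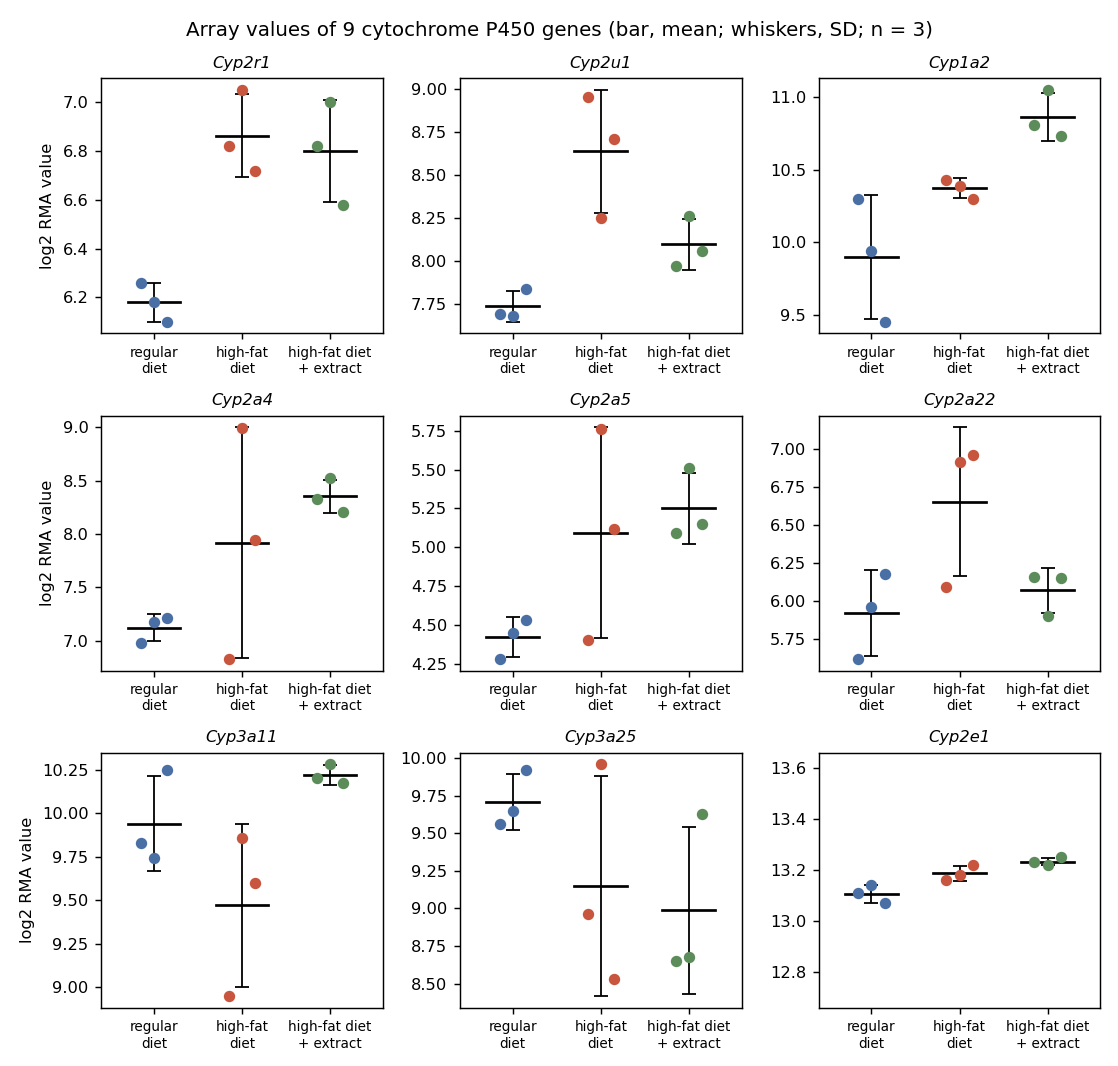
Log2 expression values on each of the 9 arrays (points) with the group mean (bar) and SD (whiskers) for 9 P450 genes; the x axis holds the RD, HFD and GFB groups. For Cyp2r1 and Cyp2u1 the 3 RD points lie below all others, and for Cyp2a4 the HFD points spread from 6.83 to 8.99.

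The 4 Cyp2a genes, which hydroxylate steroids and small ring compounds such as coumarin, all had higher means on the high-fat diet, with a median log2 difference of 0.70 and a range of 0.32 to 0.79. None of the 4 passed the test. Cyp2a4, a testosterone hydroxylase, had values of 6.98, 7.18 and 7.21 on RD, 6.83, 8.99 and 7.94 on HFD, and 8.33, 8.52 and 8.21 on GFB. HFD replicate 1 was below all RD arrays and the other HFD arrays were above them, so the HFD group had an SD of 1.08, the widest of any P450 gene above the mark in any group. The difference of HFD from RD was 0.79 ± 0.42 (adjusted p = 0.468), and it was 1.34 without HFD replicate 1 (adjusted p = 0.0777) and 0.26 without HFD replicate 2 (0.796). Cyp2a5, the coumarin hydroxylase, had the same order of HFD arrays: 4.28, 4.45 and 4.53 on RD, 4.40, 5.76 and 5.12 on HFD, and 5.09, 5.51 and 5.15 on GFB. Its difference was 0.68 ± 0.28 (adjusted p = 0.337), and it was 1.02 without HFD replicate 1 and 0.34 without HFD replicate 2. All RD arrays of Cyp2a5 were under the mark, so its differences from RD are set against a level treated here as not told from background.

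In the GFB group Cyp2a4 and Cyp2a5 lay above every RD array. Against RD the differences were 1.23 ± 0.42 for Cyp2a4, a 2.35-fold difference (interval 0.29 to 2.18, adjusted p = 0.285), and, against an RD level under the mark, 0.83 ± 0.28 for Cyp2a5 (adjusted p = 0.282). Against HFD they were 0.44 ± 0.42 (adjusted p = 0.916) and 0.16 ± 0.28 (0.953), and both changed sign without HFD replicate 1, to -0.11 and -0.19. Cyp2a22 had 5.62, 5.96 and 6.18 on RD, 6.09, 6.91 and 6.96 on HFD, and 6.16, 5.90 and 6.15 on GFB. The HFD mean was 0.73 ± 0.23 above RD (adjusted p = 0.187), and without HFD replicate 1 the difference was 1.01 with an adjusted p of 0.0448. The GFB mean of Cyp2a22 was close to that of RD (difference 0.15 ± 0.23) and differed from HFD by -0.58 ± 0.23 (interval -1.10 to -0.07, adjusted p = 0.802).

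Cyp2a4 and Cyp2a5 are near-identical copies, so a probe set of one may carry signal of the other, and their values are not 2 independent observations. The 250 bases before their starts are shown because the pair shares them: of 250 aligned bases 245 were identical (98.0%), against 145 (58.0%) for Cyp2a4 and Cyp2a22. They lie at chr7:26306942-26307191 and chr7:26835089-26835338, both on the plus strand of GRCm38.p6, with TATAAA in capitals at 28 and 29 bases before the start.
Cyp2a4: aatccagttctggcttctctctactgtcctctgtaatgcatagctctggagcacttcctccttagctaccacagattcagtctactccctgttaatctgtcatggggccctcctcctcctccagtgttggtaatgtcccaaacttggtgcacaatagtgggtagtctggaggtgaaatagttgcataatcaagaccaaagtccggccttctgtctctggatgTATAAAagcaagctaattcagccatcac
Cyp2a5: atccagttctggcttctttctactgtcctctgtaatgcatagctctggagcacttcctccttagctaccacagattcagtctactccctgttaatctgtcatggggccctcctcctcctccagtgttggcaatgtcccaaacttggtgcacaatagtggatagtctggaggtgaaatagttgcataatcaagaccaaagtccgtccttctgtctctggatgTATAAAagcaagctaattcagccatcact

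Of the 9 Cyp2d genes, which oxidise steroids and many plant alkaloids and drugs, 7 had higher means in HFD than in RD. The median difference was 0.30 with a range of -0.32, for the dim Cyp2d34, to 0.90, and 0 passed the test. Above the mark lay 6 of the 9. Cyp2d40 had values of 7.27, 7.11 and 6.01 on RD, 7.91, 7.51 and 7.67 on HFD, and 7.14, 7.47 and 7.49 on GFB. RD replicate 3 was the lowest array, and the difference of HFD from RD, 0.90 ± 0.29 (adjusted p = 0.199), was 0.50 without it. Cyp2d9, a male-biased testosterone hydroxylase, had 9.62, 9.94 and 9.90 on RD, 10.25, 9.91 and 10.22 on HFD, and 9.88, 9.87 and 10.00 on GFB, a difference of 0.30 ± 0.12 (adjusted p = 0.297). Cyp2d10 was nearly level at 9.45, 9.38 and 9.43 on RD, 9.34, 9.37 and 9.44 on HFD, and 9.45, 9.53 and 9.44 on GFB, and its diet difference of -0.04 had an interval of -0.19 to 0.11. The genes of this cluster are close copies of each other, and which of them a probe set measures is uncertain.

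Cyp2e1, which oxidises ethanol and small solvents, was almost flat. Its values were 13.11, 13.14 and 13.07 on RD, 13.16, 13.18 and 13.22 on HFD, and 13.23, 13.22 and 13.25 on GFB. All HFD and GFB arrays were above all RD arrays, but the differences from RD were only 0.08 ± 0.06 (interval -0.06 to 0.22) for HFD and 0.13 ± 0.06 (adjusted p = 0.456) for GFB. These values lie near the top of the scale, where the highest value of any probe set was 13.67. Cyp2f2, which oxidises naphthalene and is highest around the portal vein in mouse liver, had 11.27, 11.55 and 11.59 on RD, 12.01, 11.69 and 11.81 on HFD, and 11.64, 11.81 and 11.72 on GFB. Its diet difference was 0.37 ± 0.11 without overlap (adjusted p = 0.181), and the GFB mean was 0.11 below HFD.

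Cyp2j genes make epoxides of arachidonic acid. In HFD 5 of 7 had higher means than in RD, with a median difference of 0.20, and 0 passed. Only 3 of the 7, Cyp2j5, Cyp2j6 and Cyp2j9, lay above the mark, and the signal of the others does not show whether they changed. Cyp2j5 had 11.76, 11.50 and 11.37 on RD, 11.82, 11.83 and 11.79 on HFD, and 11.96, 11.94 and 11.74 on GFB (HFD against RD 0.27 ± 0.11, adjusted p = 0.316). Cyp2j6, named here after its values were seen, was the next after the called genes by adjusted p. It had 7.39, 7.47 and 7.16 on RD, 7.88, 7.86 and 7.93 on HFD, and 7.80, 7.87 and 7.44 on GFB (HFD against RD 0.55 ± 0.12, adjusted p = 0.0699). Cyp2j9 ran the other way, with 5.95, 5.92 and 6.49 on RD, 5.96, 5.97 and 5.67 on HFD, and 5.84, 5.67 and 5.74 on GFB. Its GFB arrays were all below the RD arrays, a difference of -0.37 ± 0.15 (adjusted p = 0.377), which was -0.19 without RD replicate 3, the highest array.

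The 7 Cyp3a genes, the main steroid and drug oxidases of family 3, all had lower means in HFD than in RD, although 0 passed the test, 0 had an unadjusted p under 0.05 and their median difference was only -0.09. Of the 7, Cyp3a16, Cyp3a44 and Cyp3a57 lay below the mark, which leaves 4 above it. Cyp3a11, the chief pregnane X receptor target among them, had 9.83, 9.74 and 10.25 on RD and 8.95, 9.86 and 9.60 on HFD, which overlap, and 10.20, 10.28 and 10.17 on GFB. The diet difference was -0.47 ± 0.22 (adjusted p = 0.398), and -0.21 without HFD replicate 1. Cyp3a25 had 9.56, 9.65 and 9.92 on RD, 8.96, 9.96 and 8.53 on HFD, and 8.65, 8.68 and 9.63 on GFB. HFD replicate 2 lay above all RD arrays while the other HFD arrays lay well below them, and the difference was -0.56 ± 0.36 (adjusted p = 0.571). It was -0.96 without HFD replicate 2 and -0.25 without HFD replicate 3. Cyp3a13 was level, with 9.25, 9.45 and 9.61 on RD, 9.26, 9.47 and 9.30 on HFD, and 9.18, 9.34 and 9.68 on GFB, a diet difference of -0.09 with an interval of -0.40 to 0.22. HFD replicate 1 was thus the lowest HFD array for Cyp3a11 and, among others, for Cyp2a22 and the near-identical Cyp2a4 and Cyp2a5. Over the 22 brighter P450 genes it was the lowest HFD array in 9 and the highest in 7.

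With the extract, 0 of the 38 P450 genes passed the test against the high-fat diet alone, where 0.00451% of all genes (1 gene) did, and the smallest adjusted p among them was 0.693. At an unadjusted p under 0.05 there were 3 genes with a higher mean in GFB (Cyp1a2, Cyp2d34, Cyp3a11) and 3 with a lower one (Cyp2a22, Cyp2d12, Cyp2u1), against 5.98% of all genes. Of the genes named for this comparison, Cyp2d34, Cyp2d12 and Cyp3a57 lay below the mark, where signal does not show whether a gene changed. The GFB mean was above the HFD mean in 17 genes and the median difference was -0.04. All GFB arrays were above all HFD arrays for Cyp1a2 and Cyp3a11, and below them for Cyp2d12, Cyp2d40 and Cyp3a57; over all genes 4.42% were higher and 5.27% lower without overlap. Since the HFD arrays also enter the diet comparison, a high HFD mean raises one difference and lowers the other.

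Cyp1a2 oxidises caffeine and aromatic amines and is induced through the aryl hydrocarbon receptor. Its values were 10.30, 9.94 and 9.45 on RD, 10.43, 10.39 and 10.30 on HFD, and 10.81, 11.05 and 10.73 on GFB. The groups stood in the order RD, HFD, GFB, with means of 9.90 ± 0.43, 10.38 ± 0.07 and 10.86 ± 0.17 (SD, n = 3 each), and no GFB array overlapped with another group. The GFB mean was 0.49 ± 0.18 above HFD, a 1.40-fold difference (interval 0.07 to 0.90, unadjusted p = 0.0263, adjusted p = 0.792). The HFD mean was 0.48 ± 0.18 above RD (adjusted p = 0.299), and 0.26 above it without RD replicate 3, the lowest array. Against RD the GFB mean of Cyp1a2 was 0.97 ± 0.18 higher, or 1.95-fold (interval 0.55 to 1.38), with an adjusted p of 0.0740. That p was 0.0175 without RD replicate 1 and 0.262 without GFB replicate 2.

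The other family 1 genes were dim. Cyp1a1, the neighbour of Cyp1a2 and another receptor target, had 3.80, 3.58 and 3.20 on RD, 3.58 on each HFD array, and 3.77, 3.15 and 3.72 on GFB, all under the mark. Cyp1b1, which oxidises estrogens mostly outside the liver, had 3.38, 3.17 and 3.33 on RD, 3.37, 3.37 and 3.64 on HFD, and 3.33, 3.13 and 3.41 on GFB. A signal under the mark does not show whether these genes changed.

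Cyp3a11 had the largest difference of any P450 gene above the mark in GFB against HFD: 0.75 ± 0.22, or 1.68-fold (interval 0.26 to 1.23, unadjusted p = 0.00681, adjusted p = 0.693). Its 3 GFB arrays, 10.17 to 10.28, were above all HFD arrays and close together, and they overlapped with RD, where the difference was 0.28 ± 0.22 (adjusted p = 0.666). Without HFD replicate 1 the difference from HFD was 0.48, and without HFD replicate 2 it was 0.94. The probe set cannot be assigned to Cyp3a11 with certainty, as it is one of a cluster of close copies. Another pair of probe sets, annotated to Cyp3a11, Cyp3a41a, Cyp3a41b and Cyp3a44 together, had GFB minus HFD differences of 0.70 ± 0.20 (adjusted p = 0.691) and 0.71 ± 0.20 (0.707), and may share transcripts with it.

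The sequences before the starts of Cyp1a2, Cyp1a1 and Cyp3a11 are shown because Cyp1a2 and Cyp3a11 were the only P450 genes with all GFB arrays above all HFD arrays, and Cyp1a1 is the dim neighbour. In capitals are TATAAA, then GCGTG (the core of the element bound by the aryl hydrocarbon receptor), and the half-sites of nuclear receptors such as the pregnane X receptor, AGGTCA, which is written on the strand shown, together with AGTTCA, found as its reverse complement. All were searched on both strands, and no match overlaps another. The windows are chr9:57683656-57683905 (minus strand), chr9:57697363-57697612 (plus strand) and chr5:145879855-145880104 (minus strand) of GRCm38.p6.
Cyp1a2: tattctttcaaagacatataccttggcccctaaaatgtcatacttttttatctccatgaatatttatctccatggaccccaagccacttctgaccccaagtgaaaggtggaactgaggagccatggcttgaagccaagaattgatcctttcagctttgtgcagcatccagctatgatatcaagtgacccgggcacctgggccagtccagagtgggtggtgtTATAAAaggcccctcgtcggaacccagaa
Cyp1a1: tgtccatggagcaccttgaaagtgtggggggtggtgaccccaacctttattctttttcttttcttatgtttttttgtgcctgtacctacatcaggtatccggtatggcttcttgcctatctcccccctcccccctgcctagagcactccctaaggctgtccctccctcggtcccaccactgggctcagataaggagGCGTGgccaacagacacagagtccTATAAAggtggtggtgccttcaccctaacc
Cyp3a11: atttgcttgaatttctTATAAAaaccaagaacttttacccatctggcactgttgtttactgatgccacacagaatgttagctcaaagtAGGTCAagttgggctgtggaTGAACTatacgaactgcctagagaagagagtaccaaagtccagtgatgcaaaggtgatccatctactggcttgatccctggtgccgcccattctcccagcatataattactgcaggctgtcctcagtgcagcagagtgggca
Cyp1a2 and Cyp1a1 hold TATAAA at 29 and 30 bases before the start, and Cyp1a1 holds GCGTG at 54 bases. Cyp3a11 holds TATAAA at 234, AGGTCA at 162 bases. On the other strand it holds AGTTCA at 142 bases. GCGTG was in 28.2% of all promoters and 7 of the 34 of P450 genes, AGGTCA in 14.0% and 9, and AGTTCA in 11.8% and 2. The aligned windows of Cyp1a1 and Cyp1a2 had 133 of 250 identical bases (53.2%). These matches describe the letters in the window and are not sites of binding.

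**Figure D3:**
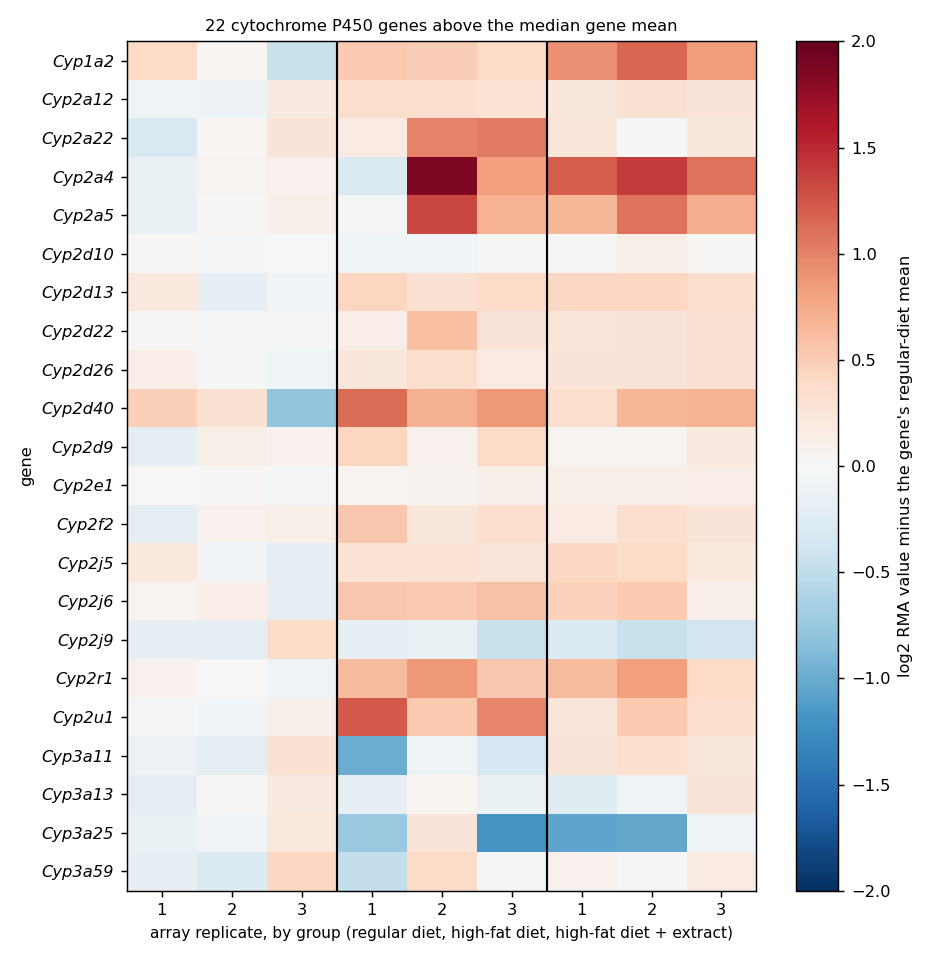
Each of the 22 brighter P450 genes (rows) on each of the 9 arrays (columns) as the log2 difference from that gene's mean over the RD arrays, on a scale from -2 to 2. The 2A genes are mostly higher on the HFD and GFB arrays, and the HFD replicate 1 array differs from the other HFD arrays for Cyp2a4, Cyp2a5, Cyp2a22 and Cyp3a11.

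In the GFB group against RD, 0 of the 38 genes were called, against 0.442% of all genes, and the smallest adjusted p was 0.0740, that of Cyp1a2. The GFB mean was above RD in 28 genes, with a median of 0.15 and a range of -0.73 to 1.23. At an unadjusted p under 0.05 there were 13 higher and 3 lower genes, with 12.1% of all genes in both directions. Above the mark lay 11 of the 13 and 1 of the 3. All GFB arrays were above all RD arrays in 13 genes and below them in 2, Cyp2j9 and the dim Cyp3a57; over all genes these shares were 7.00% and 7.62%. By subfamily, dim genes included, the GFB mean was above RD in 4 of 4 Cyp2a genes (median 0.55) and 8 of 9 Cyp2d genes (0.27). Among Cyp3a genes it was above RD in 3 of 7 (-0.02). This comparison shares its RD arrays with that of HFD against RD. In a moderated F test over the 3 groups, 0 P450 genes were called (smallest adjusted p 0.0582), where 0.780% of all genes were. At an unadjusted p under 0.05 there were 19 P450 genes of 38 and 12.3% of all genes.

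The genes that serve these enzymes were counted in lists of named genes. Of 5 measured genes listed as electron or haem-binding partners (Cyb5a, Cyb5b, Cyb5r3, Pgrmc1 and Pgrmc2), 2 rose on the high-fat diet. Over all genes 0.821% were called higher. The 2 partners were Cyb5r3, which reduces cytochrome b5, and Cyb5b, a cytochrome b5 of the outer mitochondrial membrane. Cyb5r3 had 10.13, 9.95 and 9.91 on RD, 10.86, 11.19 and 10.94 on HFD, and 10.95, 11.01 and 10.79 on GFB. Every RD array was below every other array, and the HFD difference was 1.00 ± 0.11, or 2.00-fold (adjusted p = 0.00687). Cyb5b had 8.87, 8.36 and 8.72 on RD, 9.52, 9.98 and 9.75 on HFD, and 9.71, 9.74 and 9.46 on GFB, and it rose by 1.10 ± 0.16, or 2.14-fold (adjusted p = 0.0145). Both were also called in GFB against RD (Cyb5r3 0.92 ± 0.11, adjusted p = 0.0140, and Cyb5b 0.99 ± 0.16, adjusted p = 0.0381), where 0.442% of all genes were. The diet call on Cyb5b was lost without RD replicate 2 (adjusted p = 0.0544), HFD replicate 2 (0.0507) or HFD replicate 3 (0.0645), and that on Cyb5r3 was kept without any single array. In a fit of only the 6 RD and HFD arrays neither passed (adjusted p = 0.0525 for Cyb5r3 and 0.0839 for Cyb5b). In GFB against RD the call on Cyb5r3 was lost without RD replicate 2 (0.0833), RD replicate 3 (0.0604), GFB replicate 1 (0.0779) or GFB replicate 2 (0.101). That on Cyb5b was lost without RD replicate 2 (0.121), RD replicate 3 (0.122), HFD replicate 1 (0.0513), HFD replicate 3 (0.0860), or GFB replicate 1 (0.156), 2 (0.162) or 3 (0.0606). Cyb5a, the cytochrome b5 of the endoplasmic reticulum, had a diet difference of -0.01, and Pgrmc1, a haem-binding partner of P450 enzymes, had 0.26 ± 0.07 (adjusted p = 0.108). NADPH-cytochrome P450 reductase (Por) was not analysed here.

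**Figure D4:**
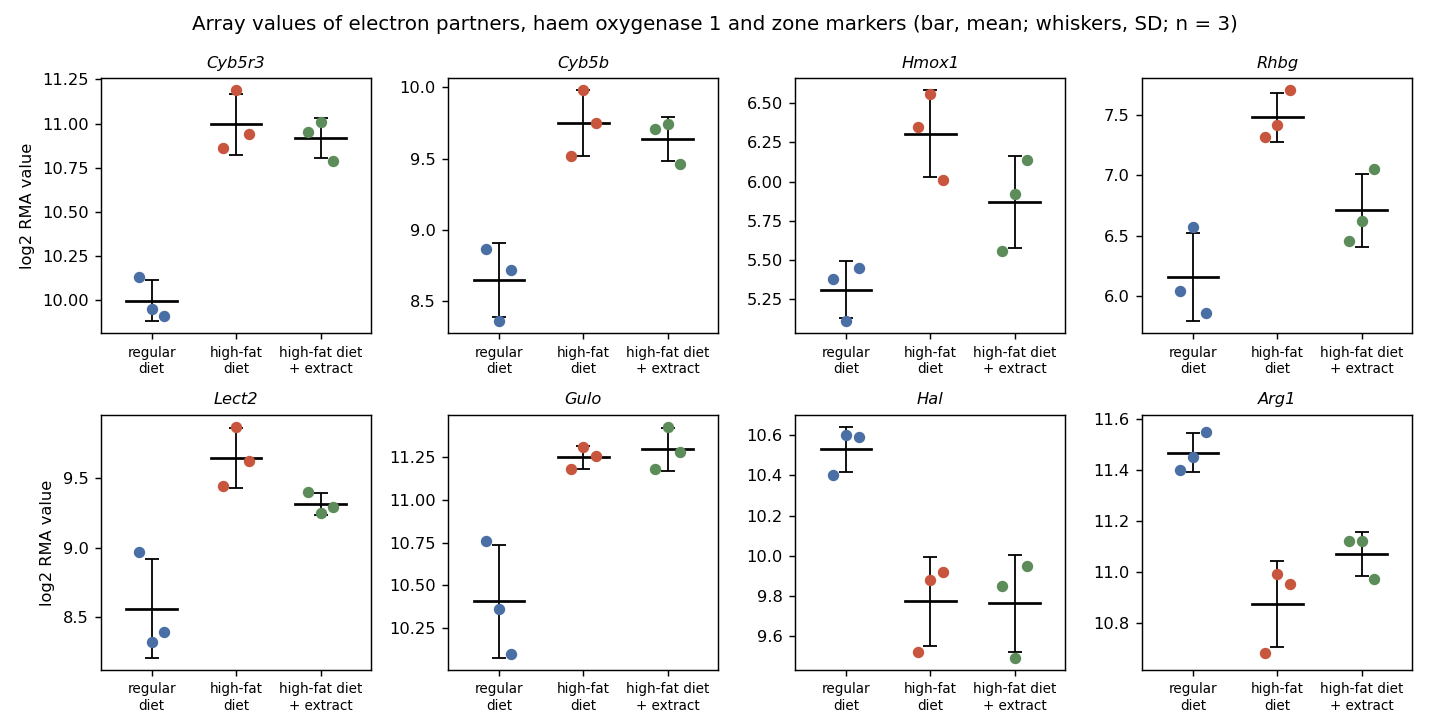
Log2 values on each of the 9 arrays, with group means and SD, for electron partner, haem and zone genes (8 in all) that were called in HFD against RD; the x axis holds the RD, HFD and GFB groups. Cyb5r3 and Cyb5b lie lower on all 3 RD arrays than on the HFD and GFB arrays.

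Of the 13 measured regulators, 0 were called in any comparison. The smallest adjusted p for the diet was that of Nr1i3, the constitutive androstane receptor, at 0.299 (difference 0.44 ± 0.17). At an unadjusted p under 0.05 there were 3 of the 13, 2 with the higher mean in HFD and 1 with the lower, against 13.3% of all genes. The aryl hydrocarbon receptor gene Ahr had differences of 0.25 ± 0.20 for HFD against RD (adjusted p = 0.656) and 0.49 for GFB against RD (0.375). The pregnane X receptor gene Nr1i2 had -0.22 ± 0.28 for HFD against RD (adjusted p = 0.806). Of 4 measured targets of the aryl hydrocarbon receptor outside the P450 family, 0 were called. For the diet 1 of the 4, Nfe2l2, had an unadjusted p under 0.05 (0.27 ± 0.10, adjusted p = 0.246), and Nqo1, a quinone reductase, differed by 0.18. Tiparp and Aldh3a1 had means of 4.64 and 4.01, below the mark, where signal does not show whether a gene changed. In GFB against HFD 0 genes of the regulator, receptor target, electron or haem-binding partner, haem and zone lists were called. At an unadjusted p under 0.05 there was 1 regulator with a higher mean in GFB. With a lower mean there were 1 receptor target, 2 haem breakdown genes and 3 pericentral markers. The share of all genes at that p was 5.98%.

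Haem is the cofactor of every P450 enzyme. Of 7 measured haem synthesis genes, 0 were called and 1 had an unadjusted p under 0.05 for the diet, Cpox, a late enzyme of the pathway (0.32 ± 0.11, adjusted p = 0.215). The share of all genes at that unadjusted p was 13.3%. Against 0.821% of all genes called higher on the high-fat diet, 1 of 4 haem breakdown genes rose. This was Hmox1, the inducible haem oxygenase. It had 5.38, 5.11 and 5.45 on RD, 6.35, 6.56 and 6.01 on HFD, and 5.56, 5.92 and 6.14 on GFB, a rise of 0.99 ± 0.18, or 1.99-fold (adjusted p = 0.0345). All HFD arrays were above all RD arrays. The Hmox1 call was lost without RD replicate 1 (adjusted p = 0.0531), RD replicate 2 (0.122), RD replicate 3 (0.0797), HFD replicate 1 (0.102), HFD replicate 2 (0.115), HFD replicate 3 (0.0524) or GFB replicate 2 (0.0673).

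Some markers of liver zones changed in the diet comparison as well, where 1.34% of all genes were called and 0.821% were called higher. Of 11 pericentral markers that are not P450 genes 3 rose, Rhbg, an ammonium transporter (1.33 ± 0.21, adjusted p = 0.0203), Lect2 (1.09 ± 0.17, 0.0213) and Gulo, of ascorbate synthesis (0.84 ± 0.15, 0.0336). The median over the 11 was 0.32, and 9 had the higher mean in HFD, while Oat differed by -0.56 ± 0.25 (adjusted p = 0.376) and Tbx3 by -0.11, both named after their values were seen. Of 8 measured periportal markers 2 fell, Hal, which breaks down histidine (-0.76 ± 0.14, adjusted p = 0.0414), and Arg1, of the urea cycle (-0.59 ± 0.10, 0.0255), with a median of -0.51 over the 8, of which 2, Ctsc (0.23) and Uroc1 (0.19), had the higher mean in HFD. The summed linear signal of the pericentral list was 8835 to 10227 on RD, 11098 to 12220 on HFD and 10149 to 11620 on GFB, and that of the periportal list 12577 to 14081, 8495 to 10649 and 9068 to 11810. The part of zonation in the P450 differences was not tested. The Rhbg call was lost without RD replicate 3 (adjusted p = 0.0693) or HFD replicate 1 (0.0502), 2 (0.0693) or 3 (0.0825), and that of Lect2 without RD replicate 2 (0.0852) or 3 (0.0786) or HFD replicate 2 (0.0775) or 3 (0.0800). The Gulo call was lost without any array but RD replicate 1 (0.0599 to 0.116). The Hal call was lost without RD replicate 2 or 3, any HFD replicate, or GFB replicate 1 or 3 (0.0546 to 0.144), and that of Arg1 without RD replicate 2 or 3, HFD replicate 1 or 3, or GFB replicate 1 or 2 (0.0523 to 0.0885). In GFB against RD, where 0.442% of all genes were called, Gulo was called as well (0.89, adjusted p = 0.0465). Among the single-array omissions that call was kept only without RD replicate 1. Of 6 male-biased and 5 female-biased liver genes 0 were called in any comparison, with 1 of 6 and 1 of 5 at an unadjusted p under 0.05 for the diet, against 13.3% of all genes. On every array 1 of the 6 male-biased and 4 of the 5 female-biased genes were under the mark. The female-biased gene at that p, Hao2, was among these (mean 2.86), so its signal does not show whether it changed.

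Of the other cell types, 2 of 8 stellate cell markers rose in HFD against RD, where 0.821% of all genes were called higher. The 2 markers were Col3a1, by 1.14 (adjusted p = 0.0115), and Col1a1, by 0.85 (0.0152), both collagens. How far these 2 calls depend on single arrays was not examined. Of the 8, 4 had the higher mean in HFD and 4 the lower, with a median of 0.01. Dcn, the brightest of the 8, differed by -0.38 (adjusted p = 0.149), with all HFD arrays below all RD arrays. The summed signal of the 8 was 1634 to 2014 on RD, 1575 to 1678 on HFD and 1690 to 1883 on GFB. Of 7 sinusoidal endothelial markers 0 were called (smallest adjusted p 0.0744), with summed signals of 1463 to 1669, 1186 to 1414 and 1450 to 1769. Of 7 Kupffer cell markers 0 were called, with summed signals of 685 to 1074, 801 to 1003 and 714 to 1042. Of 6 measured lymphocyte markers 5, and of 5 neutrophil markers 5, were under the mark on every array. The part of these cells in the P450 differences was not tested.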

How the data were processed

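Liver RNA of 9 mouse samples, 3 per group, was measured on whole-transcript arrays. The authors deposited log2 values, 1 per probe set and array. Per the submitters' processing notes they come from RMA (robust multi-array average) in oligo, an R package, with no versions. RMA removes shifts shared by most genes of an array and leaves dim probe sets near background. The sources used here do not give the array's genome build.

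Of 41345 probe sets, 23521 had 1 gene symbol, 1814 had several and 16010 had none. The highest-mean probe set stood for each of the 1082 genes with more than 1, which left 22180 genes. All 38 P450 symbols equalled RefSeq names (GRCm38.p6). limma 3.58.1 in R 4.3.3 fitted group means to all 9 arrays (6 residual and 3.28 prior degrees of freedom) with two-sided tests and Benjamini-Hochberg adjustment over all genes, called at an adjusted p under 0.05. Exact permutation of 3 against 3 arrays cannot go below p = 0.1 and was not used. The procedure was run on simulated data with noise independent between genes and arrays, which cannot show how it handles effects shared within an array. The number of arrays limits the precision.

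The P450 genes and the gene lists were chosen with earlier results of these data known. P450 genes given array by array were those called, the 4 with the largest differences in each direction and comparison above the mark of 4.74, and 11 well-known ones, with Cyp2j6 added after its values were seen. Of each list, called genes and up to 3 with the smallest p could be named. No alternative was added to those planned. Sequences came from RefSeq promoters, cut to 250 bases before the start.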

Additional observations from a re-analysis of the deposited data

How the results depend on the processing

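The number of P450 genes called in HFD against RD was 2. It was 4 with only the genes above the median gene mean (Cyp2d13, Cyp2j6, Cyp2r1, Cyp2u1), 0 with only the 6 arrays compared, and 0 to 2 when each array was left out. It was 3, with Cyp2j6 added, with variance trend and robust fitting or at an adjusted p under 0.10. No omission of a single array called both Cyp2r1 and Cyp2u1, and some called Cyp2a22, Cyp2d13 or Cyp2j6. In GFB against RD the number of P450 genes called was 0. It was 2 with the brighter genes only or at an adjusted p under 0.10 (Cyp1a2, Cyp2r1 in both), 1 with only the 6 arrays (Cyp2a4), and 0 to 2 when each array was left out. Over all 3 groups it was 0, and it was 1 with variance trend and robust fitting, 3 with the brighter genes, 1 after quantile normalization once more, 3 at an adjusted p under 0.10, and 0 to 2 when each array was left out. In GFB against HFD it was 0 under all 19 alternatives run. With the replicate number as a block, 1 P450 gene (Cyp2r1) was called in HFD against RD, 0 in GFB against HFD, 0 in GFB against RD, and 1 over all 3 groups. Same-numbered samples deviated together at correlations of -0.05 to 0.17 over all genes, the 0.17 being that of RD and GFB replicate 1. A correlation over all genes cannot exclude a pairing that affects part of them. Whether the numbers pair the samples was thus not settled, and the block is given only here. Over all genes, the calls in HFD against RD went from 297 to 15 with only the 6 arrays, to 597 with the brighter genes, to 611 at an adjusted p under 0.10, and to 58 to 452 when each array was left out. In GFB against RD they went from 98 to 34, 232, 216 and 2 to 267 in the same order. The block gave 201 and 68. The causes of these changes were not tested. Alternatives were run gene by gene for 18 of the 38 P450 genes: of their 54 differences (3 comparisons each) 11 changed sign in 1 or more alternatives with neither value called, and 0 called values reversed. In the fit of only the 6 arrays, the diet calls of Cyb5r3 (adjusted p = 0.0525), Cyb5b (0.0839), Hmox1 (0.0877), Rhbg (0.0800), Lect2 (0.112), Gulo (0.121), Hal (0.0979) and Arg1 (0.102) were also lost. With 3 arrays per group and 16 P450 genes under the mark, small differences were not detectable.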

Other observations

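A second probe set of Cyp2f2, dimmer than the one reported, had 5.77, 6.16 and 6.26 on the RD arrays, 6.81, 6.33 and 6.57 on HFD, and 5.92, 6.47 and 6.52 on GFB, a diet difference of 0.50 ± 0.19 (adjusted p = 0.299 in limma). Cyp2d37-ps, left out as a pseudogene, had 9.52, 9.62 and 9.77 on RD, 9.89, 9.97 and 10.13 on HFD, and 9.46, 9.50 and 10.06 on GFB, with a diet difference of 0.36 ± 0.15 (adjusted p = 0.356). Cyp2ab1, left out because 2 letters follow the family number, was under the mark of 4.74 on every array.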
